A study of Mus musculus with 18 samples.

Results

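The Daxx, Atrx and H3.3 chaperone genes are 9 genes that make, carry or deposit the histone variant H3.3: Daxx, Atrx, H3f3a, H3f3b, Hira, Ubn1, Cabin1, Asf1a and Asf1b. They were found by gene symbol among the 24505 RefSeq entries of the deposited expression files, where each matched 1 entry. Their RNA was measured in 18 RNA-seq libraries of E14Tg2a cells, a mouse embryonic stem cell line, in 6 groups of 3 libraries. The tested cells were Daxx-null (labelled Daxx Knockout), derived from the E14Tg2a wild-type parent, and both genotypes were grown in the same 3 cultures. In serum culture the medium held 10% fetal bovine serum and the self-renewal factor LIF at 1000 units/mL. In 2i culture a serum-free medium held inhibitors of GSK3 and MEK, LIF, and vitamin C at 100 µg/mL. In retinoic acid culture, cells from serum culture spent 24 h without LIF and 4 days in 10 µM retinoic acid, still without LIF. The medium of this culture also held 10% serum. All Daxx-null groups carried the same knockout label and no other engineered change is named. The sources used here do not say which part of Daxx was deleted, how many clones were used or whether all Daxx-null groups came from the same line. Effects of the missing gene and of anything else that separates Daxx-null from wild-type cells therefore cannot be told apart. No label says whether the 3 replicates of a group came from separate cultures, so the tests cover the spread among libraries alone, and that spread may be technical.

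H3.3 is a histone H3 that is made and placed into chromatin outside DNA replication as well as during it. DAXX binds H3.3 with histone H4 and, together with the chromatin remodeller ATRX, places it at heterochromatin such as telomeres, pericentromeric repeats and silenced retroelements. The HIRA complex, built of HIRA, UBN1 and CABIN1, places H3.3 at active genes and regulatory regions, and ASF1A and ASF1B carry new H3 and H4 to the chaperones that deposit them.

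The 2 H3.3 genes encode the same protein from different DNA, which is what lets RNA-seq reads be assigned to one or the other. Their coding sequences are both 411 bases long and are identical at 316 bases (76.9%). They differ in 83 of 137 codons, and 0 of these changes alter the amino acid. The first 120 coding bases of each, from GENCODE M21 transcripts on GRCm38 that are paired with the RefSeq accessions of the files, are shown 5′ to 3′ with the 24 differing bases in capitals.
H3f3a: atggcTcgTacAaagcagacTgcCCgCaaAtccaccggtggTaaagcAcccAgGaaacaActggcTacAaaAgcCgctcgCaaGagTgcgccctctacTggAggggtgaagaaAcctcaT
H3f3b: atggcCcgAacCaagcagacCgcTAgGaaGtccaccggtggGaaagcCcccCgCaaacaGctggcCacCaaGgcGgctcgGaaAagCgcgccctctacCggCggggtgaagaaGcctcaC
The longest run that the 2 coding sequences share is 23 bases. Other genes were a closer match than the partner: 30.3% of all 50-base stretches of the H3f3a transcript, and 10.6% of those of H3f3b, also occur in transcripts of other annotated genes. Among them were Gm17275, H3f3c and Gm12657 for H3f3a. The H3f3a transcript searched was 2841 bases long, but the entry of the files was 1080. The share within the counted H3f3a exons was therefore not measured. Gm12657, the H3f3a-like entry of the files, lay between 9.19 and 30.3 FPKM in the 18 libraries, so its own signal was far below that of H3f3a, but the sources used here do not say how shared reads were counted. Asf1a lies inside Mcm9, a gene of the opposite strand (mm9 chromosome 10, 53257130 to 53350245), and 65.8% of its 50-base stretches also occur in Mcm9 transcripts. No 50-base stretch of Daxx, Atrx, Ubn1, Cabin1 or Asf1b was shared with another gene (0% each), and for Hira the 64.4% that were shared fell in 1 overlapping annotated model, Gm28539.

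Levels are given in FPKM, fragments per kilobase of exon scaled to library depth, on the authors' scale, which by inference is about 10 times a conventional FPKM. Depth was 84.2 to 141.7 M (mega) counting units per library, and Daxx in Daxx-null 2i replicate 3 was the lowest member value, with 1421 units. The pluripotency markers (6 genes, Pou5f1 and Nanog among them) summed to 20580 to 25110 FPKM in Daxx-null against 18500 to 19380 in wild-type serum cells, and to 7812 to 15150 against 18760 to 20330 in 2i. In retinoic acid they summed to 550 to 918 FPKM in Daxx-null against 588 to 685 in wild-type cells. That sum hides single genes: 4 of the 6 were called lower there in Daxx-null cells (adjusted p under 0.05 in limma) and 0 higher. Their median log2 fold change was -1.29 against -0.05 over all tested genes, of which 2.27% were called lower. Pou5f1 held 3.29 ± 0.455 FPKM in Daxx-null against 35.4 ± 33.4 in wild-type cells. The neural markers (8 genes) summed to 1031 to 1619 FPKM in Daxx-null against 930 to 1163 in wild-type retinoic acid cells, whereas the serum groups held 534 to 552 and 540 to 624. They also reached 1889 in 1 Daxx-null 2i library, where the other 2 held 256 and 279, against 522 to 659 in wild-type 2i cells. The endoderm markers (6 genes) summed to 10.3 to 12.9 FPKM in Daxx-null against 55.2 to 71.0 in wild-type serum cells, to 231 to 348 against 38.1 to 94.8 in 2i, and to 323 to 379 against 515 to 919 in retinoic acid. The trophoblast markers (5 genes) summed to 44.1 to 79.2 FPKM in Daxx-null against 75.8 to 173 in wild-type serum cells, to 569 to 760 against 61.9 to 156 in 2i, and to 811 to 1315 against 890 to 1065 in retinoic acid. The fibroblast markers (6 genes) summed to 23.3 to 28.3 FPKM in Daxx-null against 51.3 to 86.8 in wild-type serum cells, to 62.0 to 378 against 20.1 to 104 in 2i, and to 131 to 273 against 225 to 331 in retinoic acid. Of the defining markers, Afp averaged under 1 FPKM in both serum groups, Sox17 in Daxx-null serum cells, Elf5 in every group but Daxx-null 2i, Eomes in Daxx-null retinoic acid cells, and Lum in all serum and retinoic acid groups. The part of these marker differences in the values of the 9 genes was not tested. Y-linked RNA (3 genes summed) was 173 to 237 FPKM in Daxx-null 2i cells, but 2.18 to 2.68 in Daxx-null serum cells and 1.20 to 2.59 in Daxx-null retinoic acid cells, and 155 to 349 in all wild-type cells. Daxx-null cells of 2i were thus set apart from the remaining Daxx-null cells by Y-linked RNA in addition to medium. Daxx-null 2i replicate 2 and wild-type 2i replicate 3 stood apart from their partners: the SD of log2 differences was 0.726 to 1.03 for pairs with 1 of these libraries and 0.343 to 0.493 for all other pairs. Results that turn on either are given without it.

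Daxx (NM_007829, mm9 chromosome 17, 34046390 to 34052535, plus strand), the deleted gene, was lower in each Daxx-null library than in every wild-type library. In serum it read 68.7, 72.2 and 73.7 FPKM in Daxx-null replicates 1 to 3 and 307, 319 and 353 in wild-type ones. The 2i libraries held 54.4, 56.0 and 57.6 FPKM in Daxx-null cells and 434, 423 and 402 in wild-type cells. The retinoic acid libraries held 62.7, 61.7 and 60.8 FPKM in Daxx-null cells and 238, 242 and 265 in wild-type cells. The signal left in Daxx-null cells was lowest in 2i, the culture in which the wild-type level was highest. The share of the wild-type mean that remained was 21.9% in serum, 13.3% in 2i and 24.9% in retinoic acid. On the log2 scale the serum difference was -2.18 (SE 0.0716, adjusted p = 2.4e-11), the 2i difference -2.89 (adjusted p = 4.7e-13) and the retinoic acid difference -2.0 (adjusted p = 3.7e-11). Because the deleted part is unknown, the remaining reads do not measure intact Daxx RNA. Of the 6 nearest tested genes around Daxx, 1 was called in serum (Zbtb22, log2 0.70) and 3 in 2i (Platr17, -2.25, BC051226, -0.72, and Tapbp, 0.96). None of the 6 was called in retinoic acid, where their log2 fold changes ran from -0.34 to 0.12. Over all tested genes, 28.2% were called in serum, 46.8% in 2i and 2.49% in retinoic acid.

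**Figure D1:**
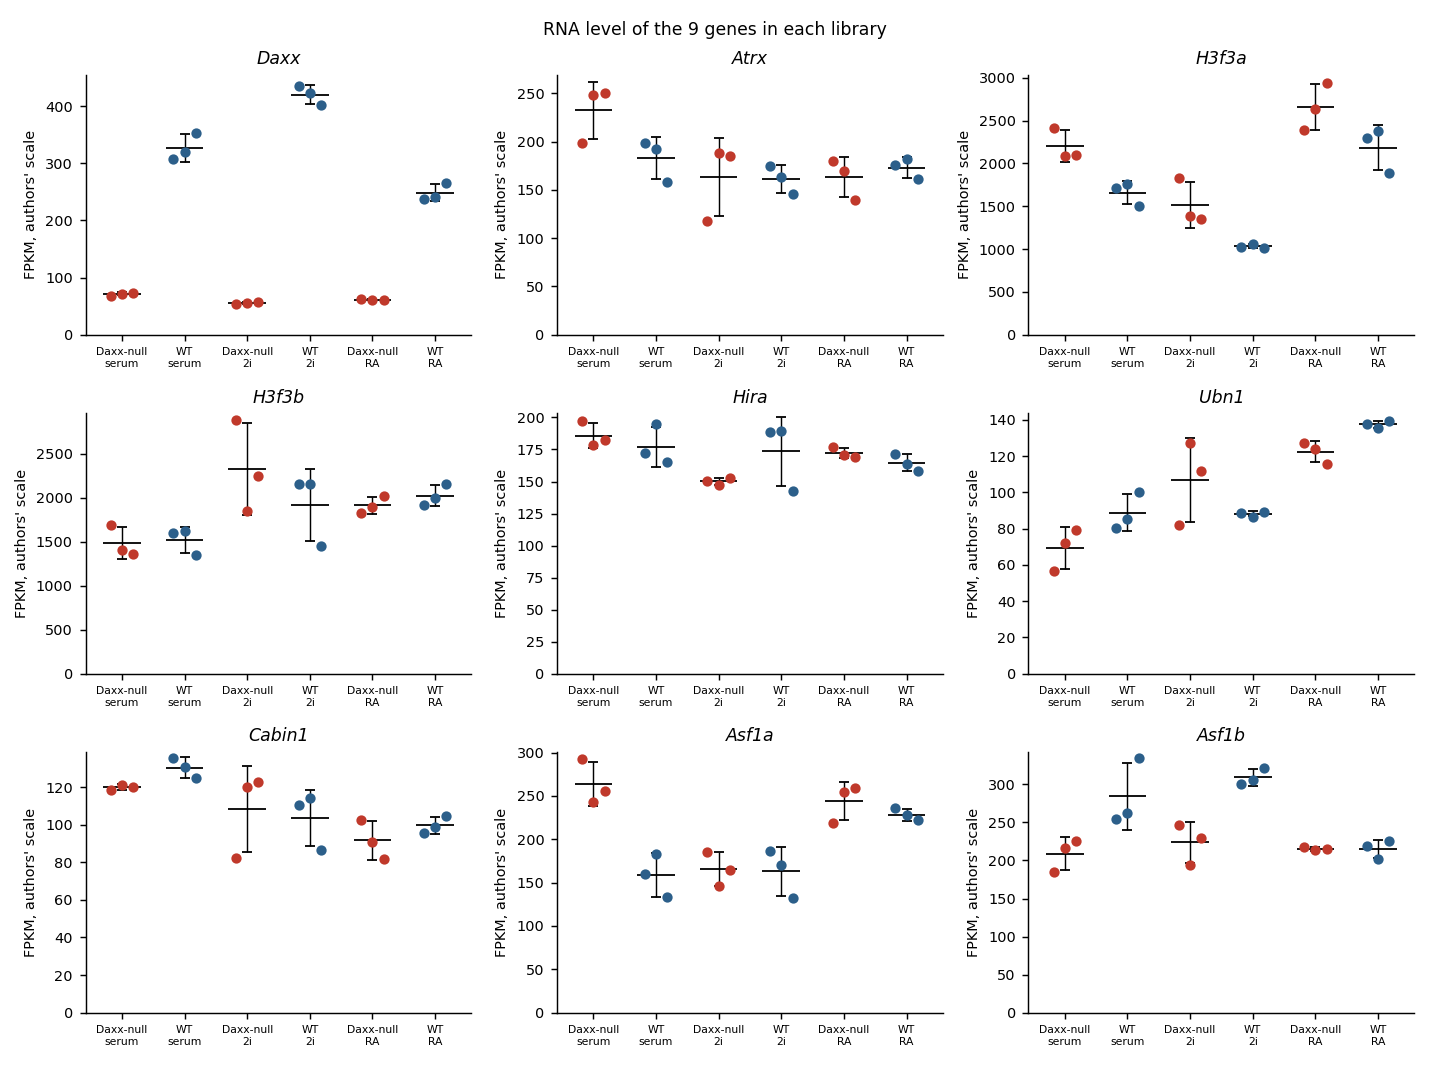
FPKM on the authors' scale (vertical axis) of each of the 9 genes in the 18 libraries, with Daxx-null in red and wild type in blue for each culture (RA, retinoic acid); points are libraries, long bars are means and whiskers are the SD (n = 3). Daxx-null libraries lie at 54.4 to 73.7 FPKM for Daxx against 238 to 434 in wild type, and for H3f3a the 3 Daxx-null libraries lie above the 3 wild-type ones in every culture.

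The first comparison asked which of the 9 genes differed between Daxx-null and wild-type cells within a culture. In serum, Asf1a and H3f3a were higher and Daxx and Asf1b were lower, 4 of 9, where 28.2% of all 18002 tested genes were called (9.29% higher and 18.9% lower). In 2i, H3f3a was higher and Daxx and Asf1b were lower, 3 of 9, where 46.8% of all tested genes were called (31.5% higher and 15.3% lower). In retinoic acid Daxx alone was called, 1 of 9, where 2.49% of all tested genes were called (0.222% higher and 2.27% lower). In RNA from whole cultures, a change in the cells present and a change in RNA per cell cannot be told apart. A gene was called at an adjusted p under 0.05 in a limma fit of log2(FPKM + 0.5) over all tested genes. Apart from Daxx, the median log2 fold change of the other 8 was 0.02 in serum, 0.04 in 2i and -0.04 in retinoic acid, against -0.12, 0.20 and -0.05 over all tested genes. Those medians of all genes depend on scaling: after quantile normalization the calls over all genes split into 2178 higher and 2122 lower in serum (1672 and 3406 as deposited) and 3722 higher and 4202 lower in 2i (5671 and 2760 as deposited).

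**Figure D2:**
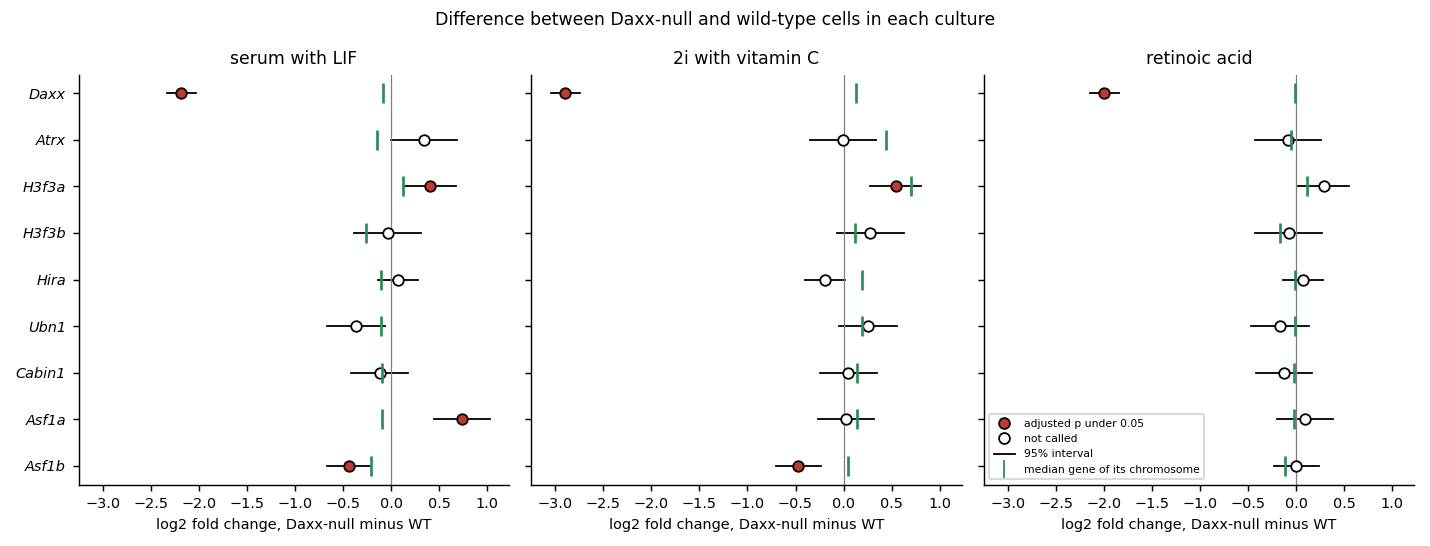
Log2 fold change of Daxx-null minus wild type (horizontal axis) for each gene in serum, 2i and retinoic acid; circles are estimates, filled where the adjusted p is under 0.05, lines are 95% intervals, and green ticks mark the median log2 fold change of all tested genes on the same chromosome. Daxx lies at -2.18, -2.89 and -2.0, Asf1a at 0.74 in serum and at 0.03 and 0.09 in the other cultures, and in 2i H3f3a (0.54) sits below its chromosome's tick (0.70).

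Atrx (NM_009530, chromosome X, 102992956 to 103124711, minus strand), the remodeller that works with DAXX, was not called in any culture. In serum it read 198, 248 and 251 FPKM in Daxx-null cells and 199, 192 and 159 in wild-type cells. The serum groups overlapped by 1 library, with a log2 difference of 0.34 (95% interval -0.00 to 0.69, adjusted p = 0.13). Its 2i level was 117, 188 and 185 FPKM in Daxx-null cells and 175, 163 and 146 in wild-type cells, and the log2 fold change was -0.01 (interval -0.35 to 0.34). Its level in retinoic acid was 180, 170 and 140 FPKM in Daxx-null cells and 176, 182 and 161 in wild-type cells, with a log2 fold change of -0.09 (interval -0.43 to 0.26). The serum difference was called under 4 of its alternatives, such as median-ratio scaling (0.45) and removal of the chromosome's median (0.55), with adjusted p between 4.6e-04 and 0.38 over all of them. In 2i the median gene of X stood at 0.44. Atrx was called lower there after removal of the chromosome's median within each library (-0.38, with adjusted p between 0.0022 and 1.0 over all alternatives). The log2 ratio of Daxx over Atrx was -1.69 ± 0.142 in Daxx-null against 0.84 ± 0.281 in wild-type serum cells, -1.51 ± 0.352 against 1.39 ± 0.0744 in 2i, and -1.40 ± 0.170 against 0.52 ± 0.172 in retinoic acid (SD, n = 3). So wild-type cells held more Daxx than Atrx RNA per length in every library and Daxx-null cells held less. Each of the 3 differences had an exact two-sided permutation p of 0.1, the smallest that 3 against 3 allows.

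H3f3a (NM_008210, chromosome 1, 182732691 to 182743736, minus strand) was the H3.3 gene that was higher in Daxx-null cells. In serum it read 2413, 2087 and 2095 FPKM in Daxx-null cells and 1712, 1758 and 1502 in wild-type cells. 2i culture gave 1827, 1381 and 1346 FPKM in Daxx-null cells and 1024, 1058 and 1014 in wild-type cells. Retinoic acid culture gave 2394, 2639 and 2940 FPKM in Daxx-null cells and 2292, 2373 and 1888 in wild-type cells. The groups did not overlap in any culture, but only the serum difference (log2 0.41, SE 0.125, adjusted p = 0.023) and the 2i difference (0.54, adjusted p = 0.0023) were called, and that of retinoic acid was 0.28 (adjusted p = 0.34). The serum call was lost after quantile normalization (0.26), after removal of the chromosome's median (0.28), and without Daxx-null serum replicate 1 (0.34) or wild-type serum replicate 3 (0.34), with adjusted p between 0.0016 and 0.14 over all alternatives. Chromosome 1 as a whole was higher in Daxx-null 2i cells, with a median log2 fold change of 0.70. With the chromosome's median removed within each library, the 2i value of H3f3a became -0.17 (adjusted p between 1.3e-05 and 0.32 over all alternatives). Among the nearest tested genes of H3f3a, Lin9 (0.71), Sde2 (0.78) and Acbd3 (0.22) were also called higher in serum, where 9.29% of all tested genes were called higher.

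H3f3b (NM_008211, chromosome 11, 115883275 to 115885818, minus strand), the other H3.3 gene, was not called between genotypes in any culture. In serum it read 1689, 1400 and 1361 FPKM in Daxx-null cells and 1595, 1617 and 1344 in wild-type cells (log2 -0.04, interval -0.38 to 0.31). For 2i the values were 2877, 1844 and 2249 FPKM in Daxx-null cells and 2157, 2154 and 1445 in wild-type cells (log2 0.28, interval -0.07 to 0.63). For retinoic acid the values were 1823, 1894 and 2015 FPKM in Daxx-null cells and 1912, 1996 and 2149 in wild-type cells (log2 -0.08, interval -0.43 to 0.27). The groups overlapped in all 3 cultures, and the 2i groups were wide. Without Daxx-null 2i replicate 2 the 2i difference was called (0.43), as it was after quantile normalization (0.52), and the adjusted p lay between 0.0076 and 0.75 over all alternatives.

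Taken as a sum, H3f3a and H3f3b reached 3682 ± 364 FPKM in Daxx-null against 3176 ± 288 in wild-type serum cells, and 3841 ± 770 against 2951 ± 426 in 2i (SD, n = 3). In retinoic acid the sum was 4568 ± 370 FPKM in Daxx-null against 4204 ± 166 in wild-type cells. The groups did not overlap in serum and 2i (exact two-sided permutation p = 0.1 for each) and overlapped in retinoic acid (exact p = 0.2). The size of these differences depended on scaling and on single libraries. The serum difference of 506 FPKM was 187 after quantile normalization (exact p = 0.6) and 296 without Daxx-null serum replicate 1. That of 2i, 891 FPKM, was 1451 after quantile normalization (exact p = 0.1) and 459 without Daxx-null 2i replicate 1. That of retinoic acid, 365 FPKM, was 496 after quantile normalization (exact p = 0.1) and 171 without Daxx-null retinoic acid replicate 3. H3f3a made up 59.8 ± 0.901% of the sum in Daxx-null against 52.2 ± 0.515% in wild-type serum cells, 39.7 ± 2.79% against 35.4 ± 5.03% in 2i, and 58.1 ± 1.29% against 51.9 ± 4.42% in retinoic acid. The share did not overlap between genotypes in serum and retinoic acid (exact p = 0.1 for each) and overlapped in 2i (exact p = 0.3), where wild-type replicate 3 held 41.2% and the other 2 wild-type libraries 32.2% and 32.9%. Within a library this share does not depend on its overall scale, and the serum difference of 7.55 percentage points was 6.64 after quantile normalization.

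**Figure D3:**
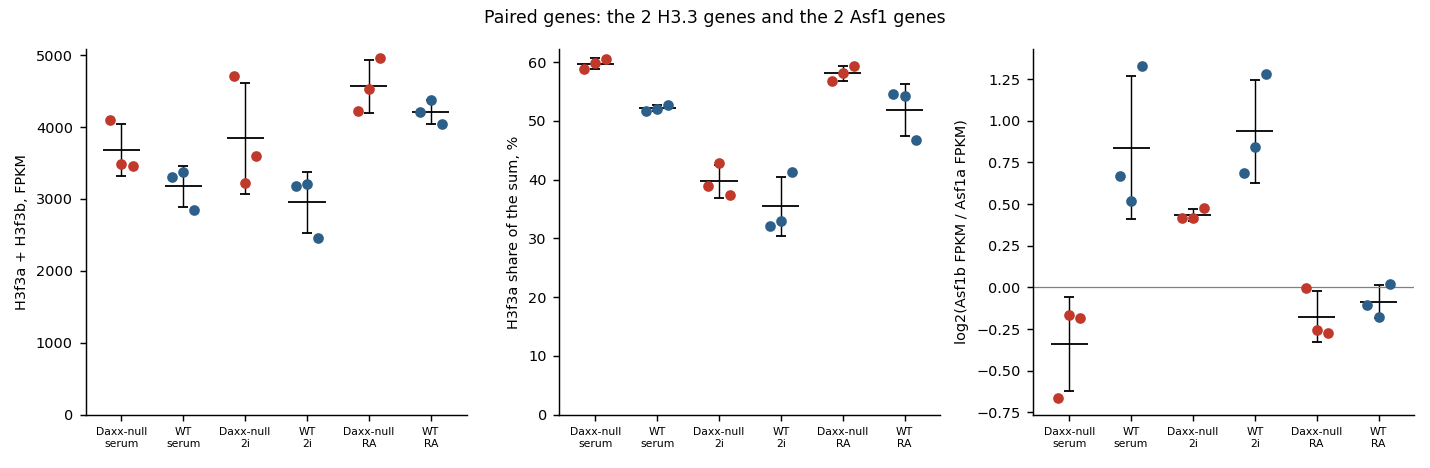
Left, summed FPKM of H3f3a and H3f3b; middle, H3f3a share of that sum in percent; right, log2 ratio of Asf1b over Asf1a FPKM, for Daxx-null (red) and wild-type (blue) libraries of each culture (RA, retinoic acid). Points are libraries, long bars means and whiskers the SD (n = 3); the H3f3a share lies at 58.8 to 60.6% in Daxx-null against 51.8 to 52.8% in wild-type serum cells, and at 32.2 to 42.8% in all libraries of 2i.

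None of the 3 genes of the HIRA complex was called between genotypes in any culture. Hira (NM_010435, chromosome 16, 18876843 to 18970401, plus strand), the complex's central subunit, read 197, 178 and 182 FPKM in Daxx-null against 172, 195 and 165 in wild-type serum cells (log2 0.07, interval -0.14 to 0.28). The 2i libraries held 151, 147 and 153 FPKM in Daxx-null cells and 189, 189 and 142 in wild-type cells (log2 -0.20, interval -0.40 to 0.01). The retinoic acid libraries held 177, 171 and 169 FPKM in Daxx-null cells and 172, 164 and 159 in wild-type cells (log2 0.07, interval -0.14 to 0.27). The 2i groups overlapped through wild-type replicate 3, and without that library Hira was called lower (-0.33), as it was after median-ratio scaling (-0.35), with adjusted p between 0.0019 and 0.35 over all alternatives.

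Ubn1 (NM_026666, chromosome 16, 5050161 to 5086378, plus strand), the subunit that binds H3.3, had its groups apart in serum and retinoic acid without reaching the threshold. In serum it read 56.5, 72.4 and 79.1 FPKM in Daxx-null cells and 80.6, 85.4 and 100 in wild-type cells (log2 -0.36, SE 0.143, adjusted p = 0.071). Its 2i level was 81.8, 127 and 112 FPKM in Daxx-null cells and 88.5, 86.6 and 89.4 in wild-type cells (log2 0.26, adjusted p = 0.15). Its level in retinoic acid was 127, 124 and 116 FPKM in Daxx-null cells and 138, 136 and 139 in wild-type cells (log2 -0.17, adjusted p = 0.75). The Daxx-null 2i libraries lay on both sides of a narrow wild-type group, and without replicate 1 of them Ubn1 was called higher in 2i (0.44; adjusted p 0.0098 to 0.88 over all alternatives). Without Daxx-null serum replicate 3, Ubn1 was called lower in serum (-0.46; adjusted p 0.045 to 0.31 over all alternatives).

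Cabin1 (NM_172549, chromosome 10, 75108855 to 75227102, minus strand), the remaining subunit, read 118, 121 and 120 FPKM in Daxx-null against 136, 131 and 125 in wild-type serum cells. Those groups did not overlap, yet the log2 fold change of -0.12 (interval -0.41 to 0.18, adjusted p = 0.57) was not called. 2i culture gave 82.2, 120 and 123 FPKM in Daxx-null cells and 111, 114 and 86.8 in wild-type cells (log2 0.05, adjusted p = 0.79). Retinoic acid culture gave 103, 90.8 and 81.6 FPKM in Daxx-null cells and 95.9, 98.6 and 105 in wild-type cells (log2 -0.13, adjusted p = 0.83). Both of these pairs of groups overlapped. With the trend on transcript length removed, Cabin1 was called lower in 2i (-0.29; adjusted p 0.018 to 0.87 over all alternatives).

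Asf1a and Asf1b, the 2 carriers of new H3 and H4, moved in opposite directions in Daxx-null serum cells. Asf1a (NM_025541, chromosome 10, 53316767 to 53329021, plus strand), whose protein hands H3.3 to HIRA, read 292, 243 and 256 FPKM in Daxx-null against 160, 184 and 133 in wild-type serum cells. Every Daxx-null serum library was above every wild-type one, for a log2 difference of 0.74 (SE 0.136, adjusted p = 9.7e-04). This call held under all 18 alternatives run for it, at 0.62 to 0.88. In 2i Asf1a read 185, 146 and 165 FPKM in Daxx-null cells and 187, 170 and 132 in wild-type cells (log2 0.03, adjusted p = 0.88). For retinoic acid the values were 219, 254 and 259 FPKM in Daxx-null cells and 236, 227 and 222 in wild-type cells (log2 0.09, adjusted p = 0.90). The groups overlapped in both of these cultures. Mcm9, the gene that spans Asf1a, averaged 25.4 FPKM in Daxx-null against 28.7 in wild-type serum cells (log2 -0.18, adjusted p = 0.26), and the sources used here do not give the strand of the reads, so its reads over Asf1a cannot be told apart.

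Asf1b (NM_024184, chromosome 8, 86479593 to 86494094, plus strand), the paralogue whose level is tied to proliferation, fell in Daxx-null cells in serum and 2i. In serum it read 185, 217 and 225 FPKM in Daxx-null cells and 255, 263 and 335 in wild-type cells. For 2i the values were 247, 195 and 230 FPKM in Daxx-null cells and 301, 306 and 321 in wild-type cells. The retinoic acid libraries held 218, 213 and 215 FPKM in Daxx-null cells and 219, 201 and 225 in wild-type cells. The groups were apart in serum (log2 -0.44, SE 0.109, adjusted p = 0.0073) and in 2i (-0.47, adjusted p = 0.0024) and overlapped in retinoic acid (0.00, interval -0.23 to 0.23). The serum call was lost after removal of the chromosome's median (-0.20) and of the length trend (-0.29), with adjusted p up to 0.14, while the 2i call held under all 19 alternatives, at -0.67 to -0.35. In 2i all 6 of the nearest tested genes of Asf1b were also called lower, at -1.29 to -0.42, although the median of chromosome 8 stood at 0.05. Over all tested genes, 15.3% were called lower in 2i. Proliferation genes differed in the same culture: 8 of 15 S phase genes were lower and 2 higher, and 9 of 10 G2/M genes were lower and 0 higher, in Daxx-null 2i cells, with list medians of -0.47 and -0.48 against 0.20 over all genes. In serum 4 of the 15 S phase genes were higher and 0 lower, and 2 of the 10 G2/M genes were lower, with list medians of 0.23 and -0.07 against -0.12. Over all tested genes, 9.29% were called higher and 18.9% lower in serum, and 31.5% were called higher in 2i. Their part in the level of Asf1b was not tested.

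The log2 ratio of Asf1b over Asf1a put both genes on one scale within a library. It was -0.34 ± 0.282 in Daxx-null against 0.84 ± 0.430 in wild-type serum cells, 0.44 ± 0.0352 against 0.94 ± 0.308 in 2i, and -0.18 ± 0.151 against -0.09 ± 0.1000 in retinoic acid (SD, n = 3). Asf1a was thus the more abundant paralogue in all 3 Daxx-null serum libraries and Asf1b in all 3 wild-type serum libraries. The groups did not overlap in serum and 2i (exact two-sided permutation p = 0.1 for each) and overlapped in retinoic acid (exact p = 0.5). Their coding sequences are 71.9% identical over 606 aligned bases, and the 50-base stretches of Asf1b occur in no other gene.

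The second comparison asked how the genes differed between cultures within a genotype. In 2i against serum, 7 of 9 were called in Daxx-null cells (2 higher and 5 lower), where 63.6% of all tested genes were called (41.8% higher and 21.8% lower). In wild-type cells 2 of 9 were called (1 higher and 1 lower), where 49.5% of all genes were called (24.7% higher and 24.8% lower). In retinoic acid against serum, 4 of 9 were called in Daxx-null cells (1 higher and 3 lower), where 66.1% of all genes were called (33% higher and 33.1% lower). In wild-type cells 7 of 9 were called (4 higher and 3 lower), where 64.5% of all genes were called (30.4% higher and 34.1% lower). Both comparisons share the serum libraries of their genotype. In Daxx-null 2i against serum the split over all genes depends on scaling, at 5131 higher and 6153 lower after quantile normalization (7525 and 3931 as deposited).

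The H3.3 genes changed with culture in opposite directions in 2i. H3f3a fell in 2i, by 0.55 on the log2 scale in Daxx-null cells (adjusted p = 0.0012) and by 0.68 in wild-type cells (adjusted p = 3.1e-04). H3f3b was higher in 2i in Daxx-null cells (0.63, adjusted p = 0.0033; 0.30 and not called with the trend on transcript length removed), and stood at 0.32 in wild-type cells (adjusted p = 0.12), a value called without wild-type 2i replicate 3 (0.51; adjusted p 0.0022 to 0.35 over all alternatives). In Daxx-null cells the fall of H3f3a was not called after quantile normalization (-0.20; adjusted p up to 0.086). H3f3b was accordingly the more abundant of the pair in all 6 libraries of 2i. In retinoic acid both genes were higher in wild-type cells (H3f3a 0.39, adjusted p = 0.011, and H3f3b 0.41, adjusted p = 0.037), and in Daxx-null cells they stood at 0.27 (adjusted p = 0.066) and 0.37 (adjusted p = 0.058). The Daxx-null values were each called under 6 alternatives, quantile normalization among them (H3f3a 0.63 and H3f3b 0.66), with adjusted p between 2.5e-05 and 0.23 for H3f3a and between 6.5e-04 and 0.16 for H3f3b over all alternatives. The wild-type calls were not firm: that of H3f3b was lost without any of 5 single libraries (0.33 to 0.45), and that of H3f3a without wild-type retinoic acid replicate 2 (0.33) or wild-type serum replicate 3 (0.33), with adjusted p up to 0.14 and 0.063 over all alternatives of the pair.

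Of the HIRA complex, Ubn1 was higher in retinoic acid in both genotypes, at 0.83 in Daxx-null cells (adjusted p = 9.1e-05) and 0.63 in wild-type cells (adjusted p = 0.0010), and these calls held under all alternatives, although with the length trend removed the values were 0.39 and 0.29. Cabin1 was lower there in both, at -0.39 in Daxx-null cells (adjusted p = 0.020) and -0.39 in wild-type cells (adjusted p = 0.023). The Cabin1 calls were lost without Daxx-null retinoic acid replicate 3 (-0.31) or Daxx-null serum replicate 2 (-0.38), and without wild-type replicates 1 or 2 of either culture (-0.38 to -0.36; adjusted p up to 0.090 and 0.068 over all alternatives of the pair). With the length trend removed, Cabin1 stood at -0.85 in Daxx-null cells and -0.76 in wild-type cells. Hira was not called in retinoic acid, at -0.11 in Daxx-null cells and -0.10 in wild-type cells, but was called lower in both with the length trend removed (-0.40 and -0.29; adjusted p up to 0.92 and 0.97 over all alternatives). In 2i, Ubn1 was higher (0.61, adjusted p = 0.0014) and Hira lower (-0.31, adjusted p = 0.012) in Daxx-null cells, and in wild-type cells they stood at -0.00 and -0.04. With chromosome medians removed the 2i rise of Ubn1 in Daxx-null cells was 0.23 (adjusted p up to 0.15 over its alternatives), and without Daxx-null serum replicate 1 the value of Hira was -0.26 (adjusted p up to 0.052). The 3 subunits of the complex therefore did not change together, since Ubn1 and Cabin1 had opposite signs in retinoic acid.

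Among the others, Atrx was lower in Daxx-null cells in 2i (-0.53, adjusted p = 0.0092) and in retinoic acid (-0.51, adjusted p = 0.011), and stood at -0.18 and -0.08 in wild-type cells, the second of these being called at -0.46 with the length trend removed. Without Daxx-null 2i replicate 1 the 2i value was -0.31 (adjusted p up to 0.056 over its alternatives), and without Daxx-null retinoic acid replicate 3 the retinoic acid value was -0.40 (adjusted p up to 0.060). Asf1a was lower in Daxx-null 2i cells (-0.67, adjusted p = 4.4e-04) and higher in wild-type retinoic acid cells (0.53, adjusted p = 0.0028). Asf1b was lower in wild-type retinoic acid cells (-0.39, adjusted p = 0.0051) and stood at 0.05 in Daxx-null ones; with the length trend removed the wild-type value was -0.22 and not called (adjusted p up to 0.088 over its alternatives). Wild-type Daxx itself was higher in 2i (0.36, adjusted p = 5.6e-04) and lower in retinoic acid (-0.39, adjusted p = 1.6e-04). The signal left in Daxx-null cells was lower in 2i (-0.35, adjusted p = 4.8e-04) and in retinoic acid (-0.21, adjusted p = 0.016) than in serum. The retinoic acid call was lost without Daxx-null serum replicate 3 (-0.19) and with chromosome medians removed (-0.05), with adjusted p up to 0.57 over all alternatives.

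**Figure D4:**
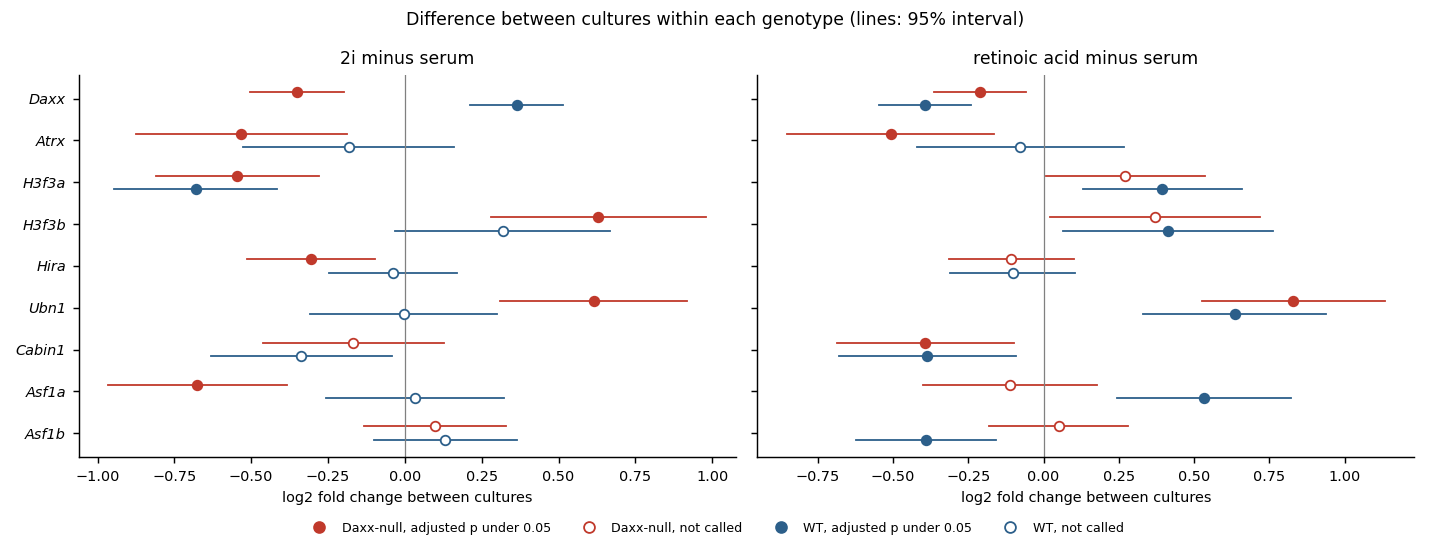
Log2 fold change between cultures (horizontal axis; left, 2i minus serum; right, retinoic acid minus serum) of each gene in Daxx-null cells (red) and wild-type cells (blue); circles are estimates, filled where the adjusted p is under 0.05, and lines are 95% intervals. Ubn1 lies at 0.83 and 0.63 in retinoic acid, and in 2i the 2 genotypes lie on opposite sides of 0 for Daxx (-0.35 and 0.36).

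The third comparison asked whether the Daxx-null minus wild-type difference changed with culture. Between 2i and serum it was called for 3 of 9 genes (1 higher and 2 lower), where 43.1% of all tested genes were called (31.5% higher and 11.5% lower). After quantile normalization that split over all genes was 3064 higher and 3443 lower (5678 and 2079 as deposited). The difference of Daxx was larger in 2i by 0.71 on the log2 scale (-0.71, adjusted p = 7.0e-05), along with the higher wild-type level. That of Asf1a was 0.71 lower in 2i than in serum (-0.71, SE 0.193, adjusted p = 0.0081), and this held under all 25 alternatives, at -1.07 to -0.59. That of Ubn1 was 0.62 higher (SE 0.202, adjusted p = 0.022) but was not called under 10 of its alternatives, where it lay as low as 0.13; 3 of these left out 1 library, Daxx-null serum replicate 1 (0.48), Daxx-null 2i replicate 2 (0.48) or wild-type serum replicate 3 (0.53). That of Hira (-0.27, adjusted p = 0.13) was called under 5 alternatives, among them the fit without wild-type 2i replicate 3 (-0.40) and median-ratio scaling (-0.53), with adjusted p between 0.0015 and 0.28 over all of them. Atrx (-0.35) was called after median-ratio scaling (-0.61), and H3f3a (0.14) and H3f3b (0.31) after quantile normalization (0.53 and 0.65). Over all alternatives H3f3a ran from -0.46 to 0.53 (adjusted p 0.0066 to 0.98), where the median of chromosome 1 stood at 0.655. H3f3b ran from -0.06 to 0.65 (adjusted p 0.020 to 0.89) and Atrx from -0.93 to -0.13 (adjusted p 4.8e-05 to 0.57). Between retinoic acid and serum 0 of 9 were called by limma, where 8.19% of all tested genes were called (4.82% higher and 3.38% lower). At an unadjusted p under 0.05, 22.6% of all tested genes passed and so did 2 of 9, Asf1a (-0.64, adjusted p = 0.051) and Asf1b (0.44, adjusted p = 0.093). Asf1a was called there under 9 alternatives, one of them the fit with the replicate number as a block (-0.64, adjusted p = 0.049).

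Levels per length put the H3.3 genes far above the rest in every group. In wild-type cells Daxx took rank 3 in all cultures, at 326 ± 24.0 FPKM in serum, 420 ± 16.5 in 2i and 248 ± 14.9 in retinoic acid, and was apart from Asf1b below it in 2i and from Asf1a below it in retinoic acid, but not from Asf1b in serum. In Daxx-null cells Daxx was last in 2i and retinoic acid, apart from the gene above it, and at rank 8 in serum, where it overlapped with Ubn1. Asf1a held rank 3 in Daxx-null serum and retinoic acid cells, and Asf1b in Daxx-null 2i cells. Atrx and Hira were neighbours whose libraries overlapped in 4 of the 6 groups, with Asf1b between them in Daxx-null serum cells and Asf1a in wild-type 2i cells. Ubn1 and Cabin1 lay in the last 3 places of every group, and only in retinoic acid was Ubn1 the higher of the pair, with no overlap in either genotype.

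Long and short members deviated in opposite directions in some libraries, and transcript length differs widely among them, at 1080 bases for H3f3a, 1987 for H3f3b and 10205 for Atrx. The balance of long transcripts (at least 6 kb, 1529 genes) over short ones (at most 2 kb, 7056 genes), as the difference of median log2 deviations, was -0.61, 0.28 and -0.04 in Daxx-null against -0.21, -0.30 and -0.36 in wild-type 2i cells. It was 0.58, 0.43 and 0.22 in Daxx-null against 0.49, 0.43 and 0.35 in wild-type retinoic acid cells. In serum it was -0.31, -0.14 and -0.13 in Daxx-null against -0.16, -0.15 and -0.17 in wild-type cells. Daxx-null 2i replicate 1, at -0.61, was also the library in which the short H3f3a and H3f3b were highest and the long Atrx, Ubn1 and Cabin1 lowest among the Daxx-null 2i libraries. With the trend on length removed, 6 of 9 genes were called in 2i in place of 3, Hira (-0.46), Atrx (-0.37) and Cabin1 (-0.29) being added, all lower. Of all 18002 tested genes, 4202 were then higher and 4931 lower in 2i, against 5671 and 2760 as deposited.

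**Figure D5:**
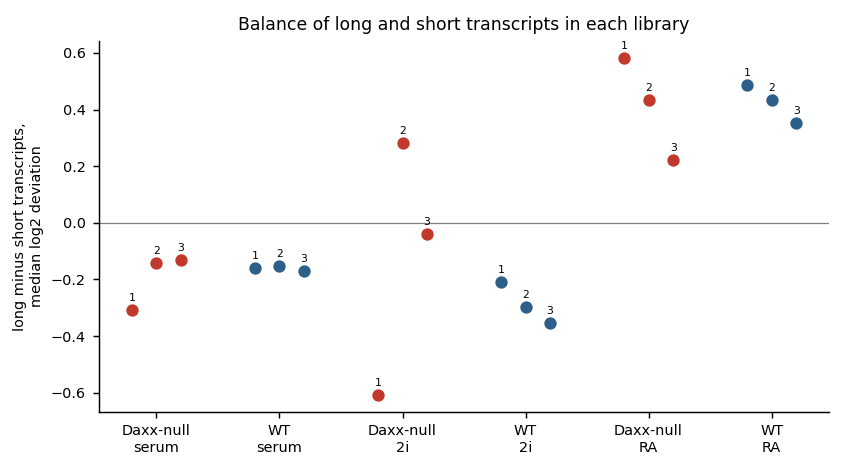
Balance of long over short transcripts in each library (vertical axis, difference of median log2 deviations from the mean of all libraries), for Daxx-null (red) and wild-type (blue) libraries of each culture (RA, retinoic acid), with replicate numbers above the points. The Daxx-null 2i libraries spread from -0.61 to 0.28, wider than any other group.

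The genes around the H3.3 pathway were read from lists, each given as counts beside the background of all genes above. In Daxx-null serum cells 1 of 11 genes of replication-coupled H3 and H4 supply was higher and 2 were lower (median 0.10), in 2i 1 was higher and 3 were lower (0.08), and in retinoic acid 0 were called (0.10). Ipo4, an importin that carries H3 and H4, was 264 ± 6.38 FPKM in Daxx-null against 154 ± 21.5 in wild-type serum cells (log2 0.78, adjusted p = 2.1e-04), and 0.69 higher in 2i, where the median of its chromosome 14 was also 0.69. Chaf1b, a subunit of the replication chaperone CAF-1, was 230 ± 19.2 FPKM in Daxx-null against 301 ± 24.3 in wild-type serum cells (-0.38, adjusted p = 0.0058). Mcm2, a helicase subunit that binds H3 and H4, was 859 ± 74.2 FPKM in Daxx-null against 1778 ± 156 in wild-type 2i cells (-1.05, adjusted p = 5.1e-06).

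In Daxx-null serum cells 4 of 15 other histone chaperones and remodellers were higher and 0 lower (median 0.08), in 2i 3 were higher and 4 lower (-0.07), and in retinoic acid 0 were called (0.09). Hjurp, the chaperone of the centromeric histone CENP-A, was 492 ± 1.26 FPKM in Daxx-null against 332 ± 13.4 in wild-type serum cells (log2 0.57, adjusted p = 5.8e-05). Anp32e, a chaperone that removes H2A.Z, was 453 ± 43.8 FPKM in Daxx-null against 727 ± 91.9 in wild-type 2i cells (-0.68, adjusted p = 2.5e-05), and Spty2d1, an H3 and H4 chaperone, was 69.1 ± 6.34 and 35.7 ± 8.52 FPKM (0.97, adjusted p = 3.8e-04).

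In Daxx-null serum cells 3 of 11 Daxx and Atrx partners were higher and 1 lower (median 0.19), in 2i 1 was higher and 2 lower (-0.09), and in retinoic acid 0 were called (-0.01). Atf7ip, the cofactor of the H3K9 methyltransferase SETDB1, was 305 ± 5.95 FPKM in Daxx-null against 181 ± 32.1 in wild-type serum cells (log2 0.77, adjusted p = 0.0011). Spop, the ubiquitin ligase adaptor that binds DAXX, was 163 ± 11.2 FPKM in Daxx-null against 198 ± 13.8 in wild-type serum cells (-0.28, adjusted p = 0.027). It lies on chromosome 11, whose median in serum stood at -0.26. Sp100, a nuclear body protein, was 24.6 ± 4.99 FPKM in Daxx-null against 3.31 ± 2.27 in wild-type 2i cells (2.96, adjusted p = 3.9e-05), on chromosome 1, whose median stood at 0.70. Cbx5, which encodes heterochromatin protein 1 alpha, was 333 ± 64.0 FPKM in Daxx-null against 545 ± 12.1 in wild-type 2i cells (-0.73, adjusted p = 6.1e-05).

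The leading S phase genes were Tyms in serum (60.3 ± 6.96 FPKM in Daxx-null against 41.5 ± 2.17 in wild-type cells, log2 0.53, adjusted p = 0.0031), and in 2i Ccne2 (0.82, adjusted p = 0.0023) and Gins2 (-0.86, adjusted p = 3.5e-04). Mcm6 was the single S phase gene called in retinoic acid, at 814 ± 62.5 FPKM in Daxx-null against 584 ± 37.4 in wild-type cells (0.48, adjusted p = 0.0045). Of the G2/M genes, the checkpoint kinase gene Bub1 fell most in serum (-0.52, adjusted p = 4.2e-04) and the spindle motor gene Kif11 fell most in 2i (-1.01, adjusted p = 3.2e-06). In retinoic acid 0 of the G2/M genes were called, where 2.49% of all tested genes were called.

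Daxx and H3f3a were the 2 members whose group means spanned at least 1 on the log2 scale, and for these the tested genes with the most similar pattern over the 6 groups were sought among 14009 genes. For Daxx the closest were Hist2h2ac (root mean square difference of centred group means 0.62), H2-Ab1 (0.63) and Macrod1 (0.63), and 0 genes came within 0.2. For H3f3a the closest were Ilkap (0.0842) and Phlpp1 (0.101), both also on chromosome 1, and Hdac10 (0.108), and 77 genes came within 0.2.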

How the data were processed

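The submitters' processing notes name the mm9 build, HOMER 4.8, Bowtie2 2.2.6 and, with no version, limma. The authors deposited FPKM per RefSeq entry for each library, with accession, symbol and exon length. These are not scaled to 1 M: the inferred total is 10 M, with 58.2 to 61.0% of it in exons, and low values were whole multiples of 1 unit (100% within 0.1). The authors also deposited log2 values, which equal log2(quantile-normalized FPKM + 1) to within 5.0e-09 among genes above the median; they served as an alternative. Per the labels' protocols, oligo-dT enrichment came before removal of ribosomal RNA, and the series design names the removal alone. Strand and how reads shared by genes were counted are not given in the sources used here. Repeat files were not used.

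All 18 libraries entered 1 fit with 6 group means in limma 3.58.1 (R 4.3.3) on log2(FPKM + 0.5) with a variance trend, for the 18002 genes with at least 3 libraries at 1 FPKM or more; all 9 members passed. A fold change on this scale understates the change of low genes. P-values were Benjamini-Hochberg adjusted over all genes, and called means under 0.05. Values made from 2 genes were compared by exact permutation. The members and lists were chosen with earlier results of these data known. Named genes were all members, the called gene with the largest rise and fall of each other list, and the 3 nearest patterns for members spanning at least 1 log2. The genes around each member are its 6 nearest tested neighbours. One neighbour of H3f3a is not reported here. Alternatives were pseudocounts, filters, scalings, removal of each chromosome's median, the groups fitted, a replicate block, no variance trend, each library left out and, added after seeing the data, removal of the trend on transcript length. The chromosome's median was taken within each library, over the deviations of its genes from their means over all libraries. Scripts were tested on simulated data.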

Additional observations from a re-analysis of the deposited data

Results flagged for a closer look

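For 3 genes the Daxx-null minus wild-type difference was itself different in 2i and in serum, by a test of that difference in limma. It was -0.71 on the log2 scale for Daxx (adjusted p = 7.0e-05), where the Daxx-null level was 56.0 ± 1.58 FPKM in 2i and 71.5 ± 2.58 in serum and the wild-type level 420 ± 16.5 and 326 ± 24.0 (SD, n = 3). For Asf1a it was -0.71 (adjusted p = 0.0081): Daxx-null and wild-type cells held 165 ± 19.9 and 163 ± 28.1 FPKM in 2i, and 264 ± 25.5 and 159 ± 25.1 in serum. For Ubn1 it was 0.62 (adjusted p = 0.022): Daxx-null and wild-type cells held 107 ± 23.2 and 88.2 ± 1.45 FPKM in 2i, and 69.3 ± 11.6 and 88.8 ± 10.3 in serum. Y-linked RNA was present in the Daxx-null cells of 2i and near 0 in those of serum, so medium and this second difference between the Daxx-null cells cannot be told apart here.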

How the results depend on the processing

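Of 31 calls of members, 15 held under every alternative, among them Daxx in all 3 cultures, Asf1a in serum and Asf1b in 2i. Of the 594 values with 1 library left out, 561 kept their side of the threshold and, where called, their direction, and of 1008 others 927 did; within these, 94 values that were not called in either case changed sign. A call was involved in 3 further changes of sign: H3f3a in 2i (-0.17) and Asf1b in Daxx-null 2i against serum (-0.33) with chromosome medians removed, and Cabin1 in 2i (-0.29) with the length trend removed. With that trend removed the members called were 6 in 2i, 2 for retinoic acid minus serum in the Daxx effect, and 7 in Daxx-null retinoic acid against serum. Of all 18002 tested genes, 4202 were then called higher and 4931 lower in 2i. The matching all-gene counts were 706 and 920 for retinoic acid minus serum in the Daxx effect, and 5673 and 6326 in Daxx-null retinoic acid against serum. For retinoic acid minus serum in the Daxx effect 1 was called with a filter of FPKM 10, quantile normalization, median-ratio scaling, the authors' table, chromosome medians removed or the replicate block, and 2 with only the groups compared. Over all genes, 867 were called higher and 608 lower there in the main fit, and 568 and 662 after quantile normalization. With only the groups compared, the all-gene calls rose to 2234 higher and 1435 lower. The serum difference in H3f3a share was 6.64 percentage points after quantile normalization. With 1 library left out, the members called for that difference in the Daxx effect ranged from 0 to 1, in wild-type retinoic acid against serum from 4 (without wild-type retinoic acid replicate 2) to 6, and in Daxx-null from 2 (without Daxx-null retinoic acid replicate 3) to 6. The causes were not tested. Same-numbered Daxx-null and wild-type replicates of a culture correlated at -0.16 to 0.15 in their deviations. With 3 libraries a group, these values cannot exclude a batch shared by same-numbered libraries. The replicate block changed no other call. Depth did not limit the members, since the lowest rested on 1421 units.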
